A study of Mus musculus with 6 samples.

Results

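The 10 genes described here act in phosphate handling and in the mineralisation of bone matrix. They were chosen by symbol, as Phex, Dmp1, Galnt3, Mepe, Fgf23, Alpl, Enpp1, Phospho1, Slc20a1 and Slc20a2. Of the 10, 8 were measured alone by a transcript cluster of the exon array, out of 18997 genes in all. Enpp1 was not matched to a cluster, and Phospho1 was matched only to a cluster shared with Abi3, so neither is analysed here.

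RNA was measured on 6 exon arrays of untreated, undifferentiated mesenchymal stem cell clones from mouse hindlimb marrow, with 1 array per clone. The Dicer-null group, labelled Dicer-/-, held 4 clones: 6.8 and 6.9, which their numbers trace to parental clone 6, with 12.2 and 12.4, traced in the same way to parental clone 12. The Dicer-carrying group, labelled Dicer+/+, held those 2 parents. Every clone descended from marrow of a 1 year old Dicerflox/flox mouse and carried SV40 Large T Antigen, a viral protein that immortalises cells. The null clones had in addition been infected with an adenovirus for Cre and GFP, sorted on GFP and cloned once more, and no Dicer-carrying clone had gone through these steps, so Dicer loss and these steps cannot be told apart. Each array is 1 clone with no repeat culture named in the labels, and the p-values therefore rest on how far clones differ. The sample titled for clone 6.9 has 6.8 in its cell type field; its title was used, and its values are not those of the 6.8 array.

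Phosphate is set in blood by FGF23, a hormone made by osteocytes and osteoblasts that makes the kidney excrete phosphate. In mice and humans, loss of Phex or of Dmp1 raises FGF23, and loss of Galnt3 leaves FGF23 open to cleavage. In the matrix itself, Alpl removes pyrophosphate, which blocks crystal growth, and the Slc20 transporters carry phosphate into cells.

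Levels are log2 values of the deposited table, and changes are Dicer-null minus Dicer-carrying on the same log2 scale. The median over genes lay between 3.62 and 3.67 on the null arrays and at 3.70 and 3.75 on the carrying arrays. No detection calls were used, so a level near 3 is called low and not absent. Where values of all clones follow each other, the null clones stand as 6.8, 6.9, 12.2, 12.4 and the carrying clones as 6, 12. In bulk RNA, fewer cells that express a gene and less of its RNA per cell cannot be told apart.

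The targeted gene, Dicer1, had 4.66, 4.43, 4.47 and 4.64 in the null clones, against 4.48 and 4.83 in the carrying clones. These levels overlapped, with a change of -0.10 ± 0.14 (SE) and limma's adjusted p at 0.885. A cluster value summarises probes along a gene, and which of them lie in the deleted stretch is not stated in the labels. The array therefore does not check the null label, which rests on the genotyping PCR that the labels describe.

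Phex and Galnt3 fell by about 5 log2 units in each of the 4 clones labelled null. Dmp1 was lower in every null clone, by amounts that differed between clones and did not pass the test. Slc20a1 and Slc20a2 were each higher in the 4 null clones by between 0.79 and 2.07, and neither passed. Fgf23 and Mepe stayed at low levels on all 6 arrays, and Alpl was far lower in clone 12.2 alone. In limma, 2 of the 8 measured genes passed at an adjusted p under 0.05, and both were lower. Both lost the call when null clone 12.4 was left out, at adjusted p of 0.0545 for Phex and 0.0674 for Galnt3 in limma. Both also lost it without carrying clone 6 or 12, fits in which the change comes from the clones of the other line alone. Over all 18997 genes, 0.426% were called lower and 0.163% higher, or 0.59% in either direction.

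Promoter sequence is shown for the genes that passed, Phex and Galnt3, with Dmp1 as a further gene lower in all null clones and Slc20a1 as a gene higher in all of them. RefSeq windows in build GRCm38.p6 were found for 9 of the 10 genes, and none was listed for Slc20a2. Each line below is the 250 bases before the most upstream listed start, read 5′ to 3′ along the gene. Capitals mark matches on either strand to the RUNX core TGTGGT, the GC box GGGCGG, the TATA box TATAAA, the CCAAT box CCAAT, the homeodomain core TAATTA or the AP-1 site TGANTCA.
Phex, chrX:157415287-157415536, minus strand: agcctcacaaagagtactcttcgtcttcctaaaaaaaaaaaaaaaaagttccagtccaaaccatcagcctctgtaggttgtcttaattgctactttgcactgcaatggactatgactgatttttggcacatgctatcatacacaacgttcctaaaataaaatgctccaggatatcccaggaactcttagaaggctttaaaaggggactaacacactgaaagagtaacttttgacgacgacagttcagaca
Galnt3, chr2:66124794-66125043, minus strand: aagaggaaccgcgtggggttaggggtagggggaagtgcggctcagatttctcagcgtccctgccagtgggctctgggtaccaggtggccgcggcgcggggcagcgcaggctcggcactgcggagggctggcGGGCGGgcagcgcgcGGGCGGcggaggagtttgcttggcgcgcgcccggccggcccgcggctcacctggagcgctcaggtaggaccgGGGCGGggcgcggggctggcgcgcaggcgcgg
Dmp1, chr5:104197325-104197574, plus strand: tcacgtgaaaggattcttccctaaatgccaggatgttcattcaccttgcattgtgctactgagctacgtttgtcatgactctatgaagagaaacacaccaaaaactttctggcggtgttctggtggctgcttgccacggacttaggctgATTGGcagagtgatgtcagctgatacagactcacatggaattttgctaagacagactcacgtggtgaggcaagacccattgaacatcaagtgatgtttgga
Slc20a1, chr2:129198523-129198772, plus strand: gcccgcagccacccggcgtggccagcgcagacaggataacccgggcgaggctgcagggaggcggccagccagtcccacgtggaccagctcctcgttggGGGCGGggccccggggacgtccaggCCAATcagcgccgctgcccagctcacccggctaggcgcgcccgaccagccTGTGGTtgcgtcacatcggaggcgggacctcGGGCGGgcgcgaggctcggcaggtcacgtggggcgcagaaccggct
The window of Phex held none of the 6 motifs and had a GC content of 39.2%. That of Galnt3 held 3 GC boxes at a GC content of 76.8%, and that of Dmp1 held 1 CCAAT box at 46.0%. The window of Slc20a1 held 2 GC boxes, 1 CCAAT box and 1 RUNX core at a GC content of 75.2%. Dmp1 and Slc20a1 each had a further listed start, whose window is not shown. In that further window Dmp1 held 1 RUNX core and 1 CCAAT box, and Slc20a1 held 1 GC box. Among 32851 windows of the same length, 32.7% held a GC box, 33.8% a CCAAT box and 14% a RUNX core, and the median GC content was 52.4%. With none in the window of Phex, the 2 genes that fell could have no motif of this set in common. A match is a description of the letters, and binding was not measured.

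Phex, an endopeptidase of the osteoblast and osteocyte surface, had log2 levels of 3.93, 3.84, 3.43 and 3.46 in the null clones, against 8.89 and 8.94 in the carrying clones. All 4 null clones were low, within 0.50 of each other, and the groups did not overlap. The mean was 3.66 ± 0.26 (SD, n = 4) in null clones and 8.91 ± 0.03 (SD, n = 2) in carrying clones. Phex fell by 5.25 on the log2 scale, with an SE of 0.14 (limma, adjusted p = 0.00476), a level 38.1-fold lower. It had the seventh most lowered change of all genes. A second transcript cluster of Phex gave the same picture, with 2.99, 3.01, 2.84 and 2.89 in the null clones, against 8.07 and 7.43 in the carrying clones. The mean change over the clones was -4.82 in that cluster. Of the other 6 measured M13 endopeptidases, the family of Phex, 0 passed in either direction, with a median change of -0.11. Mme, also called neprilysin, had the largest change among them at -1.12 ± 0.75 (SE), and -0.55 without clone 12.2. Against the own parent, Mme changed by -0.995, -1.14, -2.49 and 0.15 in the null clones. Ece1, an endothelin-converting enzyme picked out after its values were seen, had 0.67 ± 0.20 (SE).

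Galnt3, a Golgi enzyme that starts O-glycan chains and so shields FGF23 from cleavage, had levels of 3.48, 2.78, 2.68 and 2.73 in the null clones. The carrying clones had 7.99 and 7.63. The null clones again lay far below both parents, with clone 6.8 highest among them. The means were 2.92 ± 0.38 (SD, n = 4) in null and 7.81 ± 0.25 (SD, n = 2) in carrying clones. Galnt3 fell by 4.89 on the log2 scale, with an SE of 0.22 (limma, adjusted p = 0.00844), which is 29.8-fold lower. Of 18 other GalNAc transferases measured, 0 passed in either direction and their median change was 0.02. Galnt7, which acts on peptides that already carry a GalNAc, had the largest change of them at 1.64 ± 0.28 (SE), with an adjusted p of 0.103 in limma. Levels of Galnt7 were 6.94, 6.38, 7.44 and 7.22 in the null clones and 5.47 and 5.23 in the carrying clones, so it ran the other way from Galnt3 without passing.

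**Figure D1:**
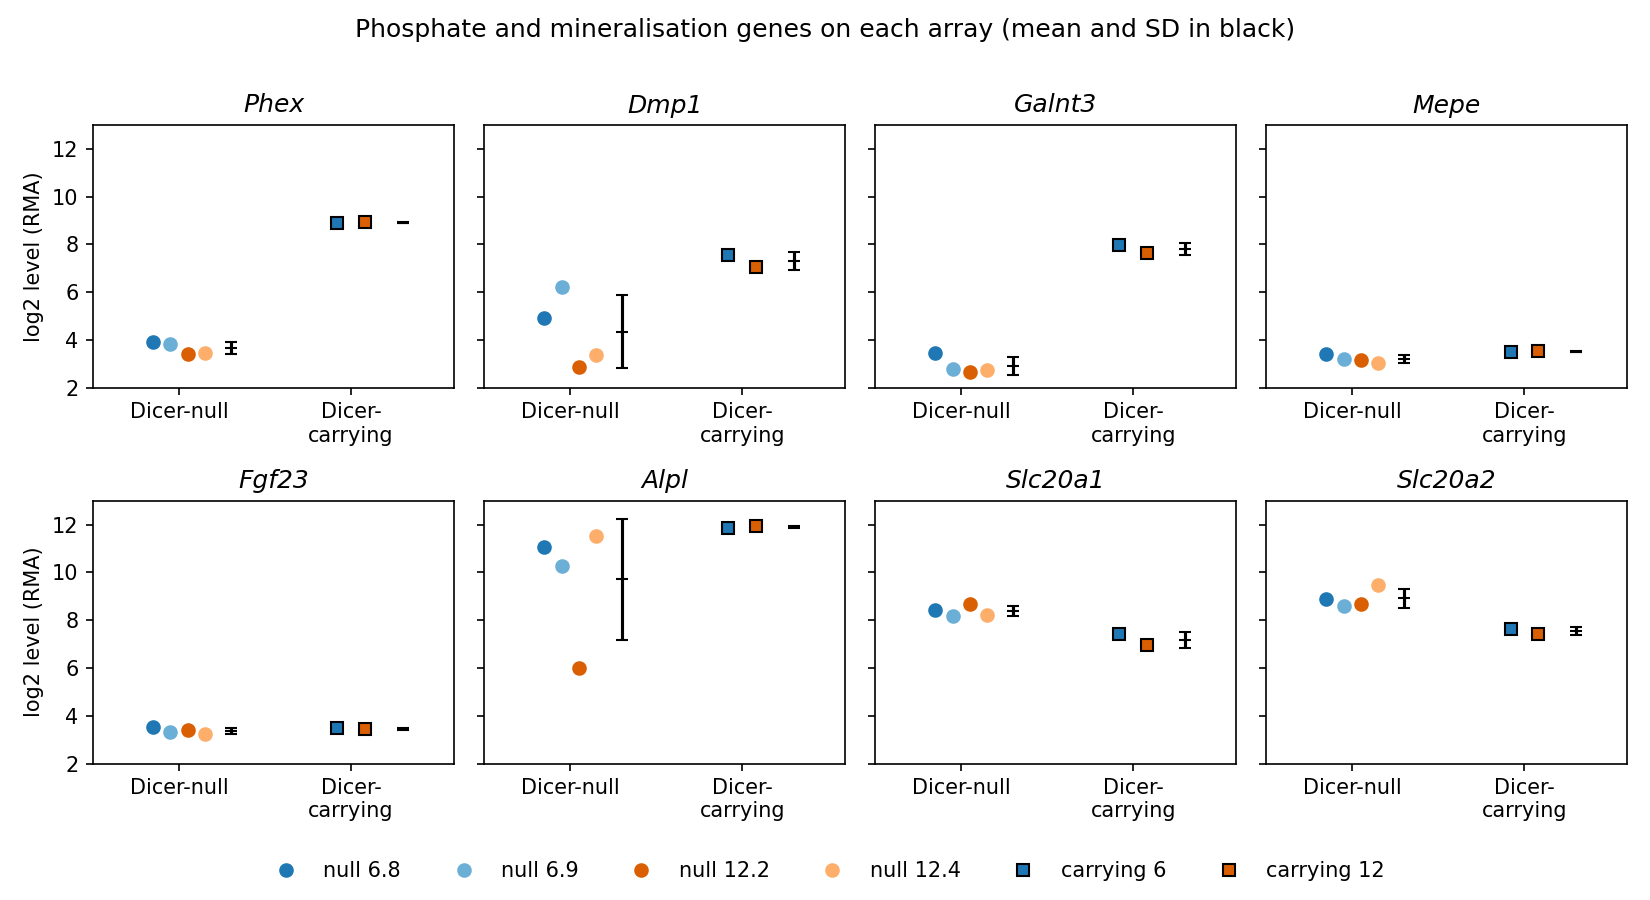
Log2 level of each measured gene on each array, with Dicer-null clones as circles and Dicer-carrying clones as squares, coloured by line; black marks give the mean and SD of the group (n = 4 null, n = 2 carrying). Phex and Galnt3 sit near 3 to 4 in all null clones and near 8 to 9 in both carrying clones, and Alpl is low in clone 12.2 alone, at 5.99.

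Dmp1, an acidic matrix protein that binds calcium and is needed for osteocyte maturation, had levels of 4.93, 6.22, 2.86 and 3.37 in the null clones. The carrying clones had 7.57 and 7.06. All null clones were below both parents, and the null clones of line 12 were lower than those of line 6. The mean was 4.35 ± 1.53 (SD, n = 4) in null and 7.32 ± 0.37 (SD, n = 2) in carrying clones. The change was -2.97 ± 0.59 (SE), with a 95% interval of -4.52 to -1.42, and limma's adjusted p of 0.131 missed the threshold. The mean change was -3.94 in line 12 and -1.999 in line 6. The difference between the lines was -1.94, with a 95% interval of -4.55 to 0.67 and an adjusted p of 0.9997 in limma, so it was not shown to differ from 0.

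Mepe, a matrix protein whose acidic peptide slows mineralisation, had levels of 3.41, 3.19, 3.19 and 3.03 in the null clones and of 3.49 and 3.52 in the carrying clones. All 6 values were low, and the null values lay just below the carrying ones. The change was -0.30 ± 0.13 (SE), with a 95% interval of -0.64 to 0.03 and an adjusted p of 0.404 in limma. It was -0.19 without carrying clone 12, a fit that takes the change from the clones of line 6 alone. Fgf23, the hormone itself, had 3.52, 3.30, 3.43 and 3.23 in the null clones, against 3.50 and 3.44 in the carrying clones. These values were low and overlapped. The change of Fgf23 was -0.10 ± 0.12 (SE), with a 95% interval of -0.41 to 0.22 and an adjusted p of 0.862 in limma. Fgf23 thus lay below the median of all genes on each array, both where Phex and Galnt3 were high and where they were low.

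Dmp1 and Mepe belong to the SIBLING proteins, a family of acidic matrix proteins whose genes lie side by side. In the GRCm38.p6 gene table the order on chromosome 5 is Dspp, Dmp1, Ibsp, Mepe and Spp1, with no other protein-coding gene among them, and all but Spp1 were measured. Ibsp, bone sialoprotein, had 8.96, 6.43, 3.08 and 8.34 in the null clones, against 12.1 in both carrying clones. Its change was -5.38 ± 1.69 (SE), with an adjusted p of 0.276 in limma. Dspp, a dentin matrix protein, had 2.66, 2.55, 2.61 and 2.46 in the null clones and 2.57 and 2.59 in the carrying clones. Dmp1, Ibsp and Mepe thus had null levels below both parents, while Dspp and Mepe were low on every array. Clone 12.2 had the lowest value of both Dmp1 and Ibsp, and 0 of the 4 measured family genes passed.

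**Figure D2:**
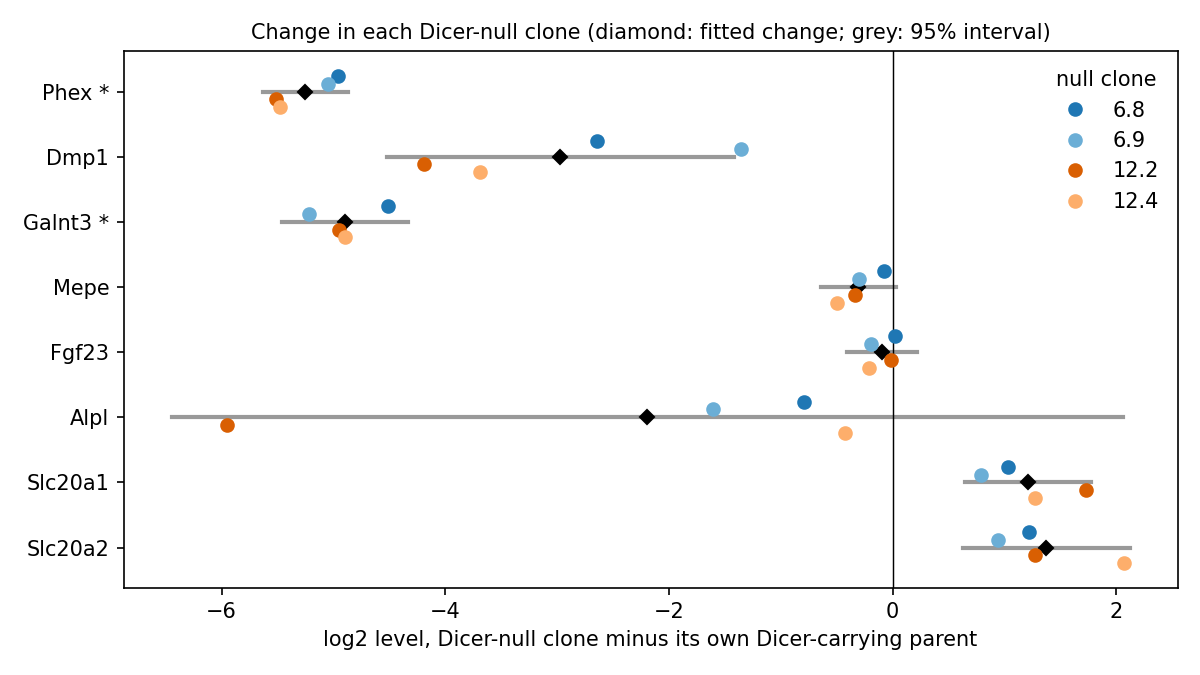
Log2 level of each Dicer-null clone minus that of its own Dicer-carrying parent, 1 circle per clone, with the fitted change as a diamond and its 95% interval in grey; an asterisk marks an adjusted p under 0.05. The circles of Phex and Galnt3 lie between -5.51 and -4.51, those of both Slc20 genes are all above 0, and those of Alpl run from -5.95 in clone 12.2 to -0.42 in clone 12.4.

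Alpl, the alkaline phosphatase that mineralising cells carry on their surface, had levels of 11.1, 10.3, 5.99 and 11.5 in the null clones, against 11.9 in both carrying clones. Every null clone was below both parents. Alpl stayed high in 3 of the 4 null clones, and clone 12.2 stood 5.53 below clone 12.4, which comes from the same parent. The change was -2.19 ± 1.63 (SE), with a 95% interval of -6.45 to 2.06 and an adjusted p of 0.704 in limma. Without clone 12.2 it was -0.87 (limma, adjusted p = 0.429). Without carrying clone 12, where the change comes from the clones of line 6 alone, it was -1.20. The spread between null clones was thus larger than the mean change, and no difference between the groups was shown. The intestinal alkaline phosphatase gene Alpi stayed between 2.44 and 2.79 in null clones and at 2.70 and 2.85 in carrying clones. Phospho2, the paralog of Phospho1, had a change of 0.05 ± 0.21 (SE).

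Osteoblast markers were compared in the same way. Of 8 listed markers, Ibsp among them, 5 were measured, 0 passed and all 5 were lower in every null clone than in both carrying clones, as were 13.9% of all genes. Their mean level was 9.23, 8.19, 6.57 and 8.95 in the null clones, against 10.8 and 10.9 in the carrying clones. Sp7, Dlx5 and Ibsp were lowest in clone 12.2, and the markers Col1a1 and Sparc were not. Sp7, a transcription factor needed to form osteoblasts, had 6.92, 5.52, 3.95 and 7.13 in the null clones, against 8.63 and 8.90 in the carrying clones. Dlx5, a homeobox factor of the same lineage, had 6.99, 6.11, 2.96 and 7.24 in the null clones, against 9.23 and 9.34 in the carrying clones. Col1a1, the main collagen of bone, had 11.9, 11.7, 11.4 and 10.5 in the null clones, against 12.1 and 12.5 in the carrying clones, and was lowest in clone 12.4. Sparc, a collagen-binding matrix protein, had 11.4, 11.2, 11.5 and 11.6 in the null clones, against 12.1 and 12.0 in the carrying clones, and was lowest in clone 6.9. The 5 markers thus did not share 1 order of the null clones. Phex and Galnt3 were about equally low in clones 12.2 and 12.4. The part of lineage state in the changes of the phosphate genes was not tested.

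Slc20a1, a sodium-phosphate cotransporter, had levels of 8.44, 8.20, 8.68 and 8.22 in the null clones, against 7.40 and 6.95 in the carrying clones. The groups did not overlap, and the lowest null clone exceeded the higher parent by less than 1 log2 unit. Its change was 1.21 ± 0.22 (SE), or 2.31-fold, with a 95% interval of 0.64 to 1.77 and an adjusted p of 0.110 in limma. Slc20a2, the second cotransporter of this family, had 8.87, 8.59, 8.69 and 9.49 in the null clones, against 7.65 and 7.42 in the carrying clones. Again every null clone was above both parents. Its change was 1.38 ± 0.29 (SE), or 2.60-fold, with a 95% interval of 0.63 to 2.12 and an adjusted p of 0.139 in limma. Both transporters were higher in 4 of 4 null clones and missed the threshold after adjustment over all genes.

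In all, 5 of the 8 measured genes were lower in every null clone than in both carrying clones, and 2 were higher. Over all genes 13.9% were lower and 9.44% higher in this way. At an unadjusted p under 0.05 in limma, 5 of the 8 genes passed, against 13.7% of all genes. Phex, Dmp1 and Galnt3 were more than 1 log2 unit below the own parent in all 4 null clones, which 1.07% of all genes were. The median change of the 8 genes was -1.25, beside -0.02 over all genes. The interaction test in limma, with 2 residual degrees of freedom, called 0 of 18997 genes as different between the lines, with 569 or 3.0% at an unadjusted p under 0.05. For Phex the lines differed by -0.49, with a 95% interval of -1.08 to 0.10. For Galnt3 they differed by -0.06, with a 95% interval of -1.48 to 1.36. The interval of Alpl ran from -12.3 to 8.37, so for that gene the test could show little.

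Wider phosphate and mineral pathways were followed through lists of 86 further genes, of which 77 were measured. Of these, 0 rose and 1 fell in limma, beside 0.163% and 0.426% of all genes. Their median change was -0.12, beside -0.02 over all genes. In every null clone 25 were lower and 9 higher than in both carrying clones, as were 13.9% and 9.44% of all genes. At an unadjusted p under 0.05 in limma 19 passed, against 13.7% of all genes. The gene called lower after adjustment was Ifitm5, a membrane protein of mineralising osteoblasts. Its levels were 3.09, 2.91, 2.94 and 2.99 in the null clones, against 8.50 and 8.69 in the carrying clones. Ifitm5 fell by 5.61 on the log2 scale, with an SE of 0.11 (limma, adjusted p = 0.00225). The change was -5.72 without carrying clone 6 and -5.50 without carrying clone 12. Each of these fits uses the clones of the other line alone, and the call was lost in each. The null clones were uniformly low, as for Phex and Galnt3. Ifitm5 was 1 of 16 measured genes for matrix vesicles and mineral nucleation, a list with a median change of -0.41. Of the 16, 8 were lower and 1 higher in every null clone than in both carrying clones. In that list Smpd3, a sphingomyelinase needed for bone mineralisation in mice and picked out after its values were seen, had 4.996, 3.67, 3.17 and 5.60 in the null clones, against 9.39 and 9.87 in the carrying clones. Its change was -5.27 ± 0.79 (SE), with an adjusted p of 0.0816 in limma.

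Among 20 measured genes of FGF23 processing and phosphate hormone signalling, 0 rose and 0 fell, with a median change of -0.17. Pth1r, the receptor for parathyroid hormone, had the largest change. Its levels were 6.88, 5.56, 3.01 and 7.45 in the null clones, against 8.89 and 9.14 in the carrying clones, a change of -3.29 ± 1.33 (SE) with an adjusted p of 0.388 in limma. Clone 12.2 was again lowest. Furin, Fam20c and Kl were picked out after their values were seen. Furin, a protease that cleaves FGF23, had a change of 0.31 ± 0.27 (SE), and Fam20c, a kinase that phosphorylates FGF23 and Dmp1, had -0.44 ± 0.44 (SE). Kl, the co-receptor klotho, lay between 2.65 and 2.85 in null clones and at 2.69 and 2.78 in carrying clones.

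Of 13 other phosphate transporters 0 rose and 0 fell, with a median change of -0.12. The largest change was that of Slc37a3, of a family of sugar-phosphate exchangers, at -0.72 ± 0.22 (SE) and an adjusted p of 0.268 in limma. Xpr1, the phosphate exporter and picked out after its values were seen, had 0.17 ± 0.20 (SE). In this list 1 gene was higher and 3 were lower in every null clone than in both carrying clones. Over all genes 9.44% were higher and 13.9% lower in this way. The gene that was higher, Slc37a2, had a change of 0.56 ± 0.25 (SE), with an adjusted p of 0.439 in limma. Of 19 measured genes of pyrophosphate and nucleotide handling 0 rose and 0 fell, with a median change of 0.11. Entpd6, a nucleoside diphosphatase, had 6.26, 6.15, 5.95 and 6.40 in the null clones, against 5.03 and 4.58 in the carrying clones. Its change was 1.39 ± 0.18 (SE), with limma's adjusted p at 0.0687, and at 0.0400 without the parental block. Entpd6 passed in no other setting. Ank, which moves pyrophosphate out of cells and was picked out after its values were seen, had -0.78 ± 0.44 (SE) with overlapping groups. Of the ENPP family, to which Enpp1 belongs, 5 genes were measured and 0 passed. Enpp6, a choline-specific phosphodiesterase, had -1.27 ± 0.20 (SE) with limma's adjusted p at 0.0912, and at 0.0250 with trend and robust moderation. No other setting took Enpp6 past the threshold. The FGF19 subfamily, to which Fgf23 belongs, had 0 of 3 genes past the threshold, and Fgf15 had the largest change at -0.14 ± 0.18 (SE).

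Of 10 mineralisation inhibitors 0 rose and 0 fell, with a median change of -0.10. Grem1, a secreted BMP antagonist, had 6.14, 7.59, 5.42 and 6.55 in the null clones, against 3.12 and 3.38 in the carrying clones. Its change was 3.18 ± 0.58 (SE), with limma's adjusted p at 0.114, and at 0.0491 with dim genes left out. That was the only setting in which Grem1 passed. Mgp, matrix Gla protein, which keeps soft tissue from calcifying and was picked out after its values were seen, had 4.97, 5.69, 4.76 and 3.61 in the null clones, against 6.86 and 7.19 in the carrying clones. Its change was -2.26 ± 0.52 (SE), with an adjusted p of 0.164 in limma. Genes that slow mineralisation thus lay on both sides of 0, and none passed.

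**Figure D3:**
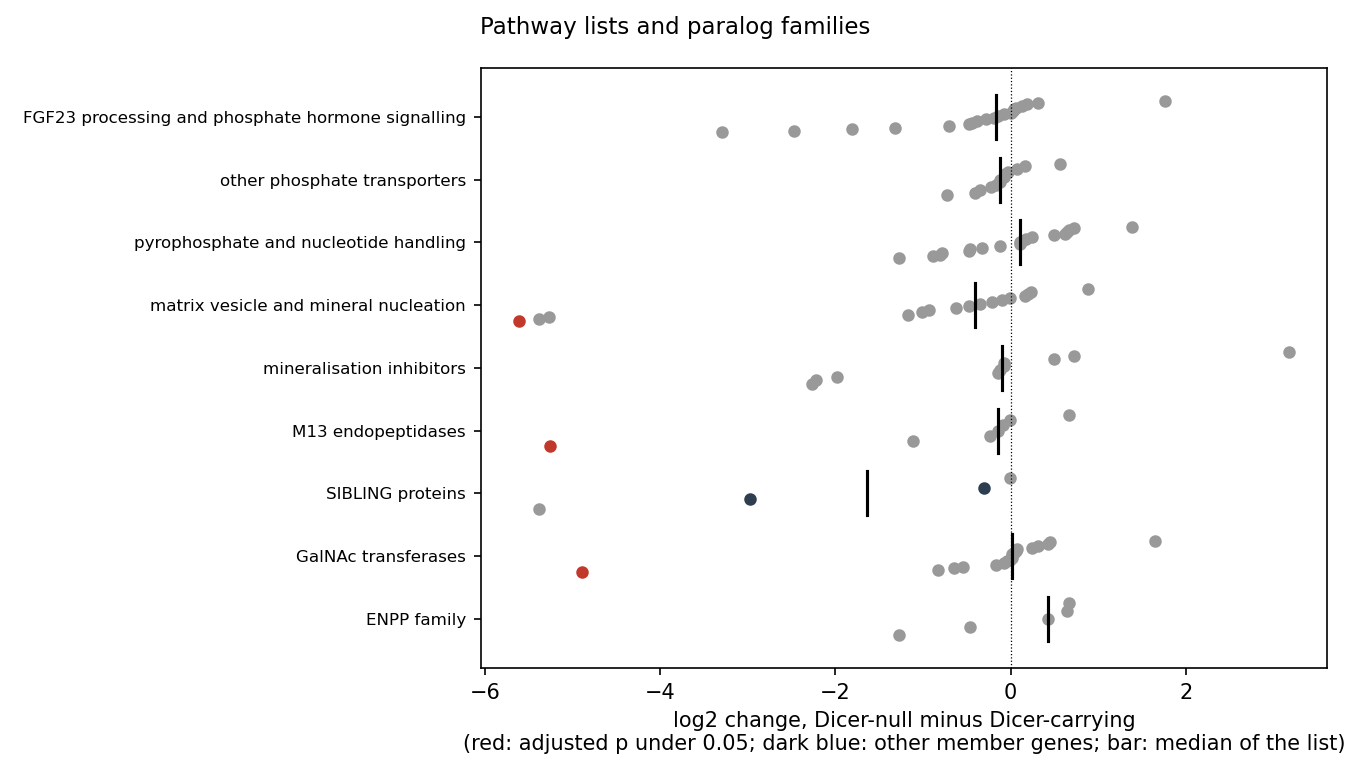
Log2 change, Dicer-null minus Dicer-carrying, of each measured gene in 5 pathway lists and 4 paralog families, with 1 point per gene and a bar at the list median. The red points are Ifitm5 at -5.61, Phex at -5.25 and Galnt3 at -4.89, which lie apart from most of their lists.

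Genes nearest to Phex over the 4 null-minus-parent changes were Pcsk6, Ifitm5, Tmem45a, Fbln5 and Galnt3, with root mean square distances of 0.34, 0.38, 0.43, 0.46 and 0.47 log2 units. The distance compares sizes of change, so genes that fell by about as much as Phex come nearest. Galnt3, already seen to fall by a like amount, was among these 5. Genes nearest to Alpl were Gprc5c, Lrp4, Sncaip, Sfrp2 and Pgm5, at distances of 0.59, 0.65, 0.73, 0.82 and 0.92. Their changes in clone 12.2 were -5.40, -6.15, -5.13, -4.96 and -5.84, and in clone 12.4 they were -0.61, 0.19, 0.34, 0.42 and -0.997. These genes were chosen for changes near those of Alpl, so a far lower level in clone 12.2 than in clone 12.4 follows from that choice. The parental array is common to both clones, so this difference lies between the null arrays.

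**Figure D4:**
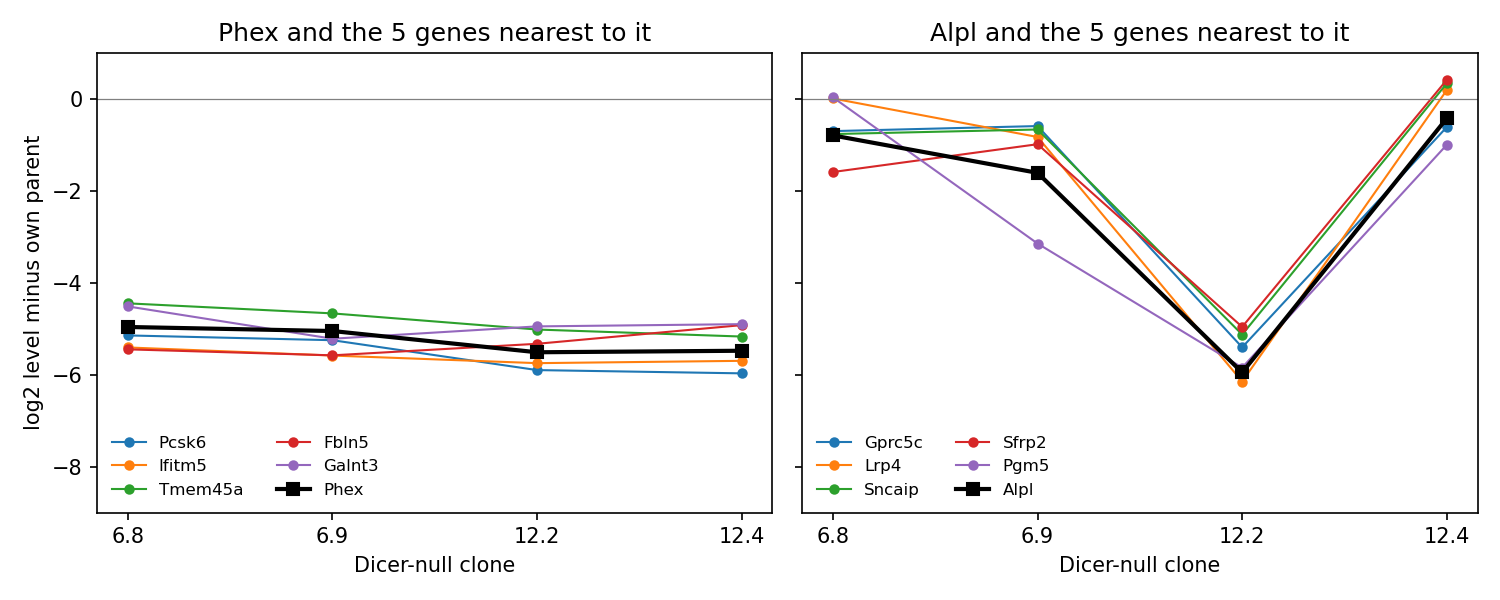
Log2 level minus own parent in each Dicer-null clone, for Phex (left) and Alpl (right) in black and the 5 genes nearest to each in colour; lines only join the values of 1 gene. The Phex group lies between -5.97 and -4.45 in all clones, and the Alpl group dips to between -6.15 and -4.96 in clone 12.2.

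Across whole arrays the values spanned 1.8 to 14.1, and pairs of arrays correlated at 0.92 to 0.98 over 44343 clusters, which are not independent replicates. Of the mesenchymal stromal markers 8 of 10 were measured and 0 passed, with mean levels of 6.38 to 7.06 in null and 6.44 to 6.53 in carrying clones. Of the 8, 1 was higher and 0 lower in every null clone than in both carrying clones, beside 9.44% and 13.9% of all genes. That gene, Vcam1, had 6.26, 5.81, 8.01 and 7.69 in the null clones, against 3.58 and 3.98 in the carrying clones. Its change was 3.16 ± 0.37 (SE), with an adjusted p of 0.0548 in limma. Thy1 was low on every array, at 2.57 to 2.74 in null clones and 2.52 and 2.61 in carrying clones, although it is a defining marker of such cells. Markers of haematopoietic, endothelial and osteoclast cells, which marrow cultures can hold, had mean levels of at most 3.34, 2.81 and 2.86 in null clones and 3.17, 2.83 and 2.97 in carrying clones. Ptprc, the pan-leukocyte gene, had 2.52 to 2.72 in null clones and 2.54 and 2.55 in carrying clones. In the same haematopoietic list Itgam, Csf1r and Cd3e were at most 3.14 on any array, and Cd14 and Cd68 were higher. Cd14 had 3.69 to 4.87 in null clones and 4.32 and 4.24 in carrying clones. Cd68 had 3.32 to 4.08 in null clones and 3.44 and 3.58 in carrying clones. Adipocyte, chondrocyte and smooth muscle markers had 0 genes past the threshold, with median changes of -0.61, -0.11 and -1.16. By null clone the adipocyte median was -1.36, -0.66, -1.45 and 1.32, so clone 12.4 went the other way. Of 6 measured osteocyte markers, a list that holds Phex, Dmp1, Mepe and Fgf23, only Phex passed. Pdpn, an early osteocyte gene picked out after its values were seen, had 3.95, 3.26, 8.43 and 2.80 in the null clones, against 3.14 and 3.22 in the carrying clones, so it was high in clone 12.2 alone.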

How the data were processed

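Total RNA of each clone was hybridised to an exon array. The deposited values are log2 expression per transcript cluster; Partek 6.5 and RMA are named in the submitters' processing notes, with no role or order, and the genome build behind the array is not stated there. The 44343 clusters divide into 22781 that name a single gene, 2085 that name more and 19477 that name no gene, and symbols were updated by Entrez identifier to GRCm38.p6, which matched 22485. The brightest cluster stood for each gene. Depth has no equivalent on arrays; their number limits precision.

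Dicer loss was tested with limma 3.58.1 in R 4.3.3, taking the parental line as a block, 3 residual degrees of freedom, and Benjamini-Hochberg adjustment over 18997 genes at 0.05. The line interaction was a contrast of 4 cell means. The fit was tested on simulated data. The null clones share parental arrays, so their changes are not independent. Alternatives were the block, sibling means, cluster choice, a filter on dim genes (log2 mean under 4 in both groups), scaling, moderation and leaving out arrays.

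Members, lists and tests were chosen with earlier results of these data known. Named were all members, the list and family genes past the threshold or else the largest change, and the 5 genes nearest to Phex and to Alpl. Paralogs could share probe signal, which was not tested.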

Additional observations from a re-analysis of the deposited data

Results flagged for a closer look

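Dixon's test at the 95% level was run over the 4 null clones for 28 named genes and 6 lists, and chance alone picks about 1 in 20. Galnt3 had a log2 level of 3.48 in clone 6.8, apart from the other null clones at 2.68 to 2.78. Mme had 3.08 in clone 12.2, against 5.72 to 6.09 in the other null clones. Gprc5c had 3.84 in clone 12.2, against 8.64 to 9.08 in the other null clones. It was named for its nearness to Alpl, itself far lower in clone 12.2, so this flag follows in part from that choice. Alpl itself was not flagged. The changes of Alpi had opposite signs in the clones of the lines, with a difference of -0.39 between line 12 and line 6 and an adjusted p of 0.9997 in limma, and its levels were low on all arrays.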

How the results depend on the processing

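Phex and Galnt3 passed in limma in each of the 8 settings that kept all arrays, with adjusted p of 0.000381 to 0.0461 for Phex and 0.000474 to 0.0461 for Galnt3. Leaving out 1 array at a time gave 0 to 2 of the 8 genes past the threshold. Neither passed without null clone 12.4, where Phex had an adjusted p of 0.0545 and Galnt3 of 0.0674 in limma. Nor did either pass without carrying clone 6 or 12, which takes the change from the clones of the other line alone. Without carrying clone 6 and without carrying clone 12, Phex had -5.50 and -5.01 and Galnt3 had -4.92 and -4.87. Over all 6 such fits the change of Phex stayed between -5.50 and -5.01 and that of Galnt3 between -5.05 and -4.75. Fewer residual degrees of freedom remain in those fits. Over all genes 112 passed, against 220 without the parental block (90 shared), 15 with sibling means, 233 with trend and robust moderation, 195 without dim genes, and 0 to 17 without 1 array (12 without null clone 6.8, 13 without 6.9, 17 without 12.2, 2 without 12.4 and 0 without either parent, where 1654 and 1493 passed unadjusted). The interaction count was 0 in every setting run. Dmp1, Alpl, Slc20a1 and Slc20a2 kept their sign and passed in none. The changes of Alpi, Phospho2 and Fgf15 turned to 0.0588, -0.12 and 0.0333 without carrying clone 12, against -0.3351, 0.2231 and -0.3227 without carrying clone 6, and that of Phospho2 turned to -0.0569 without null clone 6.9. The line difference of Phex turned to 0.0083 with the mean of clusters, that of Galnt3 to 0.0012 with arrays centred and 0.29 without clone 6.8, and that of Alpl to 0.78 without clone 12.2. For Fgf23 it turned to 0.0746 with quantile normalisation, 0.0334 with arrays centred, 0.0816 without clone 6.8 and 0.0723 without clone 12.4; the cause was not tested. Mepe and Fgf23 were below the filter on dim genes.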
